A study of Xenopus laevis with 4 samples.

Results

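The genes described here act when a cell makes centrioles, and in particular the many centrioles of a multiciliated cell. They are every probe set on the array whose annotated gene symbol, apart from the ending .L or .S, is ccno, ccdc78, cep152, plk4 or sass6. That rule gave 7 probe sets for 6 genes (ccno.L, ccno.S, ccdc78.S, cep152.L, plk4.L with a pair of probe sets, and sass6.L) of 32539 probe sets besides controls, and 6 of the 9380 named genes that were tested. The endings .L and .S mark the gene copies of the long and the short subgenome of Xenopus laevis, an allotetraploid frog, and near-identical copies may share probes. Expression was measured on 4 one-colour Affymetrix arrays, 2 per group, in presumptive ectoderm (animal caps) cut from embryos at stage 9 to 10 and cultured on fibronectin. The ICD group had received synthetic mRNA for ICD at the 2-cell stage, and the other group mRNA for ICD together with MCI-HGR. Dexamethasone was given to both groups at stage 11.5, and explants were harvested 5 h later, at about stage 14. The shared ICD means that the controls are not untreated ectoderm. Both mRNAs came by injection rather than from a transgene, RNA came from whole explants, and the labels do not say how many explants went into a sample or whether the replicates came from separate clutches.

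As background, ICD is the usual name for the intracellular domain of Notch, which holds ectodermal cells back from the multiciliated fate. MCI-HGR is a form of multicilin fused to the part of the glucocorticoid receptor that binds hormone, so that dexamethasone activates it. Multicilin is a nuclear coiled-coil protein that works with E2F factors to switch on the multiciliated programme. A dividing cell makes a single new centriole beside each old one, whereas a multiciliated cell makes many at once, most of them around deuterosomes, which are ring-like bodies without a centriole of their own. Each new centriole starts with the kinase plk4, held in place by scaffolds such as cep152, and is built on a cartwheel whose spokes are made of sass6. Ccno, an atypical cyclin, and ccdc78, a coiled-coil protein, are needed for normal deuterosome-dependent amplification in multiciliated cells.

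All 32539 signals were above 0, and their median lay between 37.1 and 45.4 on the 4 arrays. Number 1 and number 2 below are the replicate numbers in the labels, and each holds 1 array of each group. For the labelled tissue, 13 measured genes of epidermis summed to between 32960.5 and 50697.5 on an array. No other tissue was measured beside it, so these sums do not test the label. The 7 measured multiciliated cell marker genes summed to 572.2 and 553.0 with ICD and to 6606 and 5314 with MCI-HGR. All 7 were higher with MCI-HGR in both numbers, as were 32.7% of all 9380 tested genes. Of the 7, 6 passed the signal filter described below. The 7 include mcidas.S, which may read the injected mRNA, so its difference is no separate sign of multiciliated cells. The injected regulator could be read through mcidas.S alone, with signals of 9.7 and 17.1 for ICD, 384.2 and 141.5 for MCI-HGR. The first of these ICD signals was below 13.0, the brightest of the 17 tag controls on that array, so the difference in number 1 was at least 29.6-fold, against 8.28-fold in number 2. Injected and endogenous mcidas mRNA were not told apart. The arrays also parted by number: the mesoderm gene tbxt.S was at 930.4 and 474.1 in number 1 and at 12.0 and 25.8 in number 2. The 6 measured mesoderm genes summed to 1812.7 with ICD and 902.0 with MCI-HGR in number 1 and to 187.3 and 167.2 in number 2, and the 6 neural genes to 7243.4 and 6877.4 in number 1 and 2649.6 and 3303.6 in number 2. With the replicate number as a block in the fit, 3 of 13 epidermal genes were called higher and 2 lower. Of the 6 neural genes 2 were called higher, and of the 6 mesoderm genes 1 lower. In either direction, 0 of 4 ionocyte genes were called, and none of the 3 endoderm and 2 blood genes that passed the filter. Over all 9380 tested genes, 5.74% were called higher and 2.56% lower with the block. Ratios of the 5' or middle part of a control transcript to its 3' part were lower with MCI-HGR. The middle to 3' ratio of actin was 0.640 and 0.652 with ICD and 0.569 and 0.401 with MCI-HGR. For the control dap the 5' to 3' ratio was 0.062 and 0.065 with ICD and 0.042 and 0.028 with MCI-HGR. The part of these ratios and of the other cell types in the results below was not tested.

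With MCI-HGR the 2 homeologs of ccno were 16.3-fold and 27.2-fold higher, ccdc78.S was 9.52-fold higher and cep152.L was 4.89-fold higher, and each of these differences was at least 2-fold in both numbers. The core assembly genes plk4.L and sass6.L differed by 1.11-fold to 1.52-fold. Thus 4 of 7 probe sets were at least 2-fold higher in both numbers, which 2.05% of all 24404 tested probe sets were, and 6 of 7 were higher in both numbers, against 29.2% of all. Both MCI-HGR arrays were above both ICD arrays for 5 of 7 probe sets, against 11.5% of all. The members were chosen with earlier results of these data known, so the shares in this paragraph do not test them. The 7 probe sets include 2 ccno homeologs, which may share probes, and a pair for plk4.L, so they are not separate members. In the fit of the groups alone (limma, Benjamini-Hochberg adjustment over all 24404 probe sets), 0 of 7 members passed an adjusted p of 0.05, as did 0.0% of all probe sets in the higher direction, and 4 of 7 had an unadjusted p under 0.05. Over all probe sets 712 were higher and 124 lower at that unadjusted level, and the smallest adjusted p was 0.101. With the replicate number as a block, 6 of 7 members passed in the higher direction, against 4.68% of all probe sets. Rose and fell are used below only for genes that passed with that block. The labels do not say what a replicate number stands for, and the fit with the block is the alternative one. Neither word therefore marks a call of the main fit of the groups alone. The exact permutation test of 2 arrays against 2 cannot give a p below 0.333, and it gave that p for the 5 probe sets whose groups did not overlap. In explants measured in bulk, a change in the number of cells of a type and one in RNA per cell cannot be told apart.

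**Figure D1:**
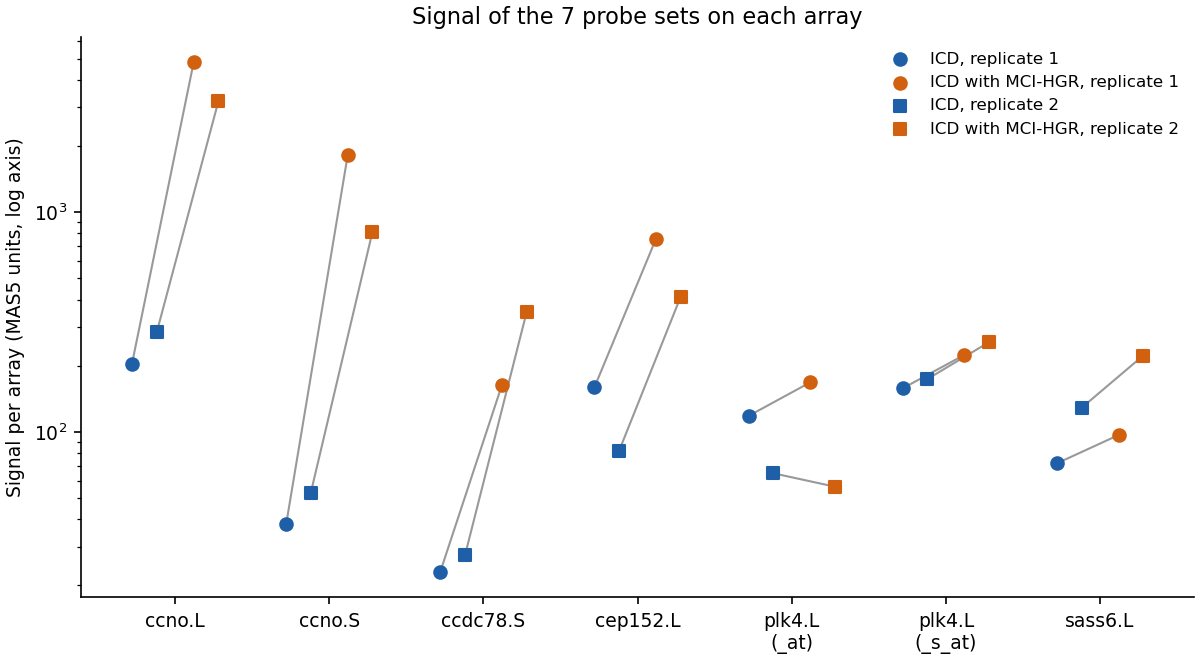
Signal of the 7 probe sets on each of the 4 arrays, on a log axis in MAS5 units, with a grey line joining the ICD array (blue) and the ICD with MCI-HGR array (orange) of the same replicate number. Levels of different probe sets cannot be set against each other; within a probe set, the orange points of ccno.L, ccno.S, ccdc78.S and cep152.L lie clear of the blue ones, and those of sass6.L and of the plk4.L probe set ending in _at overlap them.

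The cyclin ccno was measured for both subgenome copies. The ccno.L probe set (Xl2.50818.1.S1_at) had signals of 204.5 and 283.5 with ICD and of 4812.3 and 3189.5 with MCI-HGR, that is 244 ± 55.9 against 4001 ± 1147 (SD, n = 2). The groups lay far apart, and within the MCI-HGR group number 1 was the higher array, while with ICD it was the lower one. The log2 difference was 4.02 (SE 0.29), with an adjusted p = 0.109 without the block and 3.74e-11 with it, and the difference was 23.5-fold in number 1 and 11.2-fold in number 2. The ccno.S probe set (Xl2.33942.1.S1_at) had signals of 38.0 and 52.9 with ICD and of 1828.8 and 814.1 with MCI-HGR. This copy had the same order of arrays as ccno.L in each group, and its ICD signals were 2.92 and 5.29 times the highest tag control of their arrays. Its log2 difference was 4.77 (SE 0.46), 48.1-fold in number 1 and 15.4-fold in number 2, with an adjusted p = 0.174 without the block and 8.36e-10 with it. Thus ccno.L and ccno.S both rose with the block, and their differences stood at rank 15 and rank 5 of 24404 from the top. Whether the copies differ from each other in their response was not tested. With 1 array left out, the log2 difference ran from 3.73 to 4.32 for ccno.L and from 4.18 to 5.35 for ccno.S.

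Ccdc78 had 1 probe set (Xl2.4890.1.S1_at), for the .S copy. Its signal was 23.1 and 27.4 with ICD and 163.5 and 350.8 with MCI-HGR, that is 25.2 ± 3.04 against 257 ± 132 (SD, n = 2). The ICD arrays were close to each other and low, at 1.78 and 2.74 times the highest tag control, and in the MCI-HGR group number 2 was the higher array, the opposite of ccno. The log2 difference was 3.25 (SE 0.46), 7.08-fold in number 1 and 12.8-fold in number 2, with an adjusted p = 0.187 without the block and 2.56e-08 with it, so that ccdc78.S rose with the block. Adding 16 to every signal before taking log2 lowered the log2 difference to 2.64, since the ICD signals were small. Leaving out 1 array gave log2 differences of ccdc78.S between 2.7 and 3.8.

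Cep152, the scaffold that brings plk4 to the site of a new centriole, also had 1 probe set (Xl2.30345.1.S1_at), for the .L copy. Its signal was 159.6 and 82.0 with ICD and 758.6 and 413.0 with MCI-HGR. Number 1 was above number 2 in both groups, by 1.95-fold with ICD and 1.84-fold with MCI-HGR, and the groups did not overlap. The difference within a number was therefore nearly the same, 4.75-fold and 5.04-fold. The log2 difference was 2.29 (SE 0.47), with an adjusted p = 0.401 without the block and 3.16e-09 with it, and cep152.L rose with the block with a 95% interval of 2.01 to 2.57. Its log2 difference with 1 array left out lay between 1.81 and 2.77.

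The kinase plk4, which sets how many centrioles form, was read by a pair of probe sets annotated to the .L copy, and they differed. The plk4.S copy had no probe set of its own here, and whether either set also reads it was not tested. The set ending in _s_at (Xl2.7020.1.S1_s_at) had signals of 157.8 and 173.9 with ICD and 224.1 and 256.1 with MCI-HGR, with no overlap. Its difference was 1.42-fold in number 1 and 1.47-fold in number 2, a log2 difference of 0.53 (SE 0.24), with an adjusted p = 1 without the block and 0.0287 with it. With quantile normalization added to the block the log2 difference was 0.49 and the adjusted p was 0.0567, above the threshold. The set ending in _at (Xl2.7020.1.S1_at) had signals of 118.2 and 64.8 with ICD and 168.0 and 56.3 with MCI-HGR, so the groups overlapped. The difference was 1.42-fold higher in number 1 and 1.15-fold lower in number 2, and the adjusted p was 1 without the block and 0.803 with it. Its log2 difference of 0.15 (SE 0.63) turned to -0.28 without ICD replicate 2 and to -0.64 without MCI-HGR replicate 1, and was 0.94 at most with another array left out. Its blocked 95% interval, -0.28 to 0.58, holds the value of the other plk4.L probe set.

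Sass6, which forms the spokes of the cartwheel, was read by 1 probe set for the .L copy (Xl2.33005.1.S1_at). Its signal was 71.9 and 128.6 with ICD and 96.7 and 222.4 with MCI-HGR, and the groups overlapped because number 2 was above number 1 by 1.79-fold and 2.3-fold within the groups. Within a number the MCI-HGR array was higher by 1.34-fold and 1.73-fold. The log2 difference was 0.61 (SE 0.53), with an adjusted p = 1 without the block and 0.0437 with it. With quantile normalization added to the block the log2 difference was 0.58 and the adjusted p was 0.0684, and leaving out 1 array gave log2 differences between 0.01 and 1.21. A gene with a related symbol that the rule does not take in, sass6.2.L, had signals of 102.1 and 124.6 with ICD and 137.2 and 157.5 with MCI-HGR, with an adjusted p = 0.232 with the block. Neither plk4.L nor sass6.L was 2-fold higher in either number. With the block, the intervals of plk4.L (0.23 to 0.83 for the _s_at set) and sass6.L (0.24 to 0.98) ended below that of cep152.L. Without it they overlapped that of cep152.L (1.09 to 3.49), at -0.094 to 1.16 and -0.757 to 1.975. Whether these genes differ from each other in their response was not tested.

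**Figure D2:**
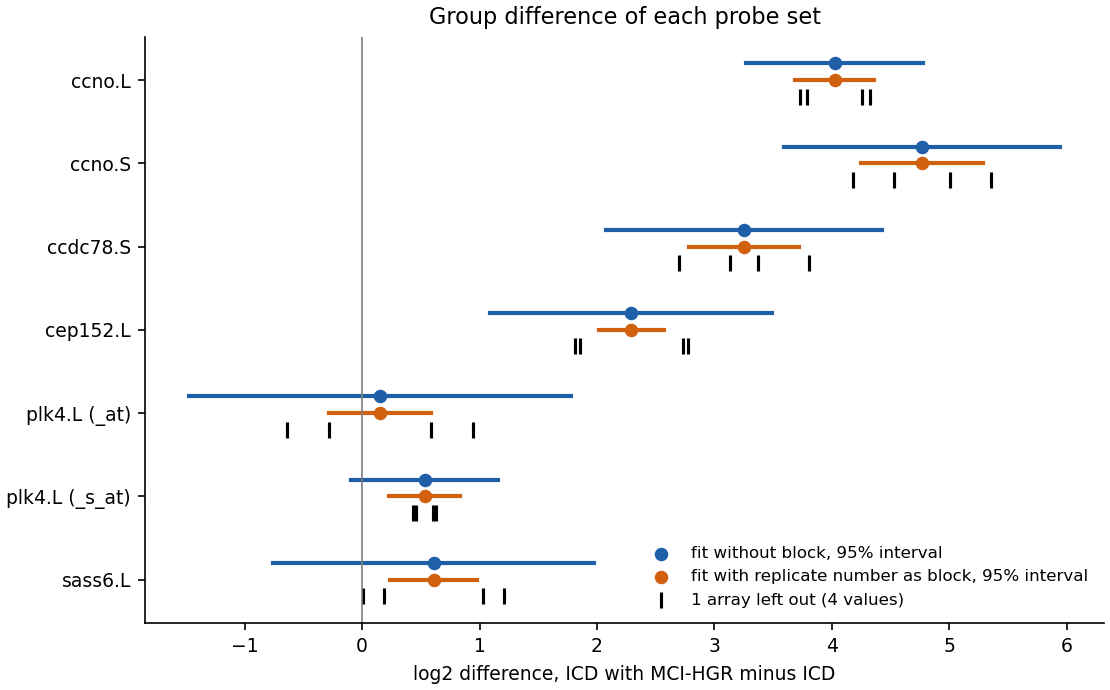
Log2 difference of each probe set, ICD with MCI-HGR minus ICD, from the fit without a block (blue) and with the replicate number as a block (orange), with 95% intervals, and the values with 1 array left out (black ticks). Intervals of ccno.L, ccno.S, ccdc78.S and cep152.L lie above 0 in both fits, while those of plk4.L and sass6.L include 0 without the block. That of the plk4.L set ending in _at includes 0 with the block too. The intervals are not adjusted for the number of probe sets, and 0 of 7 members passed an adjusted p of 0.05 without the block.

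The members differed in how the difference varied between numbers. It was larger in number 1 for both ccno copies and the plk4.L set ending in _at, larger in number 2 for ccdc78.S and sass6.L, and about equal for cep152.L and the other plk4.L set. With 1 array of each group per number, these differences between numbers have no replicate check.

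**Figure D3:**
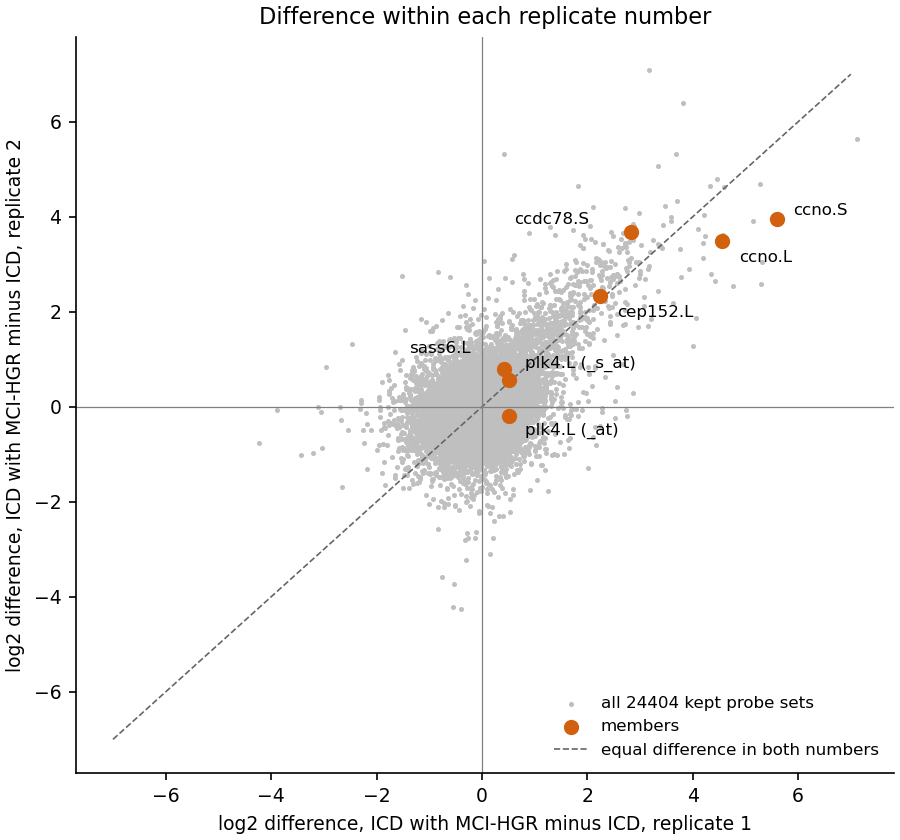
Log2 difference in number 1 against that in number 2 for all 24404 tested probe sets (grey) and the 7 members (orange), with the dashed line marking equal differences. Both ccno points lie to the right of the line (23.5-fold against 11.2-fold for ccno.L), ccdc78.S lies above it and cep152.L lies close to it.

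The other genes of centriole formation were described from lists chosen by role, with each gene read by its brightest probe set. In this and the following lists, measured means that a probe set with 1 symbol passed the signal filter. Names without such a probe set are not counted. Genes higher in both numbers made up 32.7% and genes lower in both 29.0% of all 9380 genes, 5.74% of them rose and 2.56% fell with the block, and the median log2 difference of all genes was 0.01. Of 8 names on the deuterosome list 4 were measured, and cep57l1.L and cep63.L were the genes measured beside the members. Cep57l1.L, related to the centrosomal protein cep57, was 481.8 and 392.4 with ICD and 857.0 and 664.3 with MCI-HGR, and rose 1.74-fold (adjusted p = 0.931 without the block, 4.94e-05 with it). Cep63.L, whose product pairs with cep152 at the parent centriole, had a log2 difference of -0.33 and an adjusted p = 0.339 with the block, and its sign was not the same in both numbers. The deuterosome scaffold deup1 was not analysed here.

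Of 7 further genes of procentriole start and cartwheel, 2 rose with the block, 0 fell and 4 were higher in both numbers, with a median log2 difference of 0.29. Stil.L, the partner that links plk4 to sass6, was 272.0 and 263.8 with ICD and 731.4 and 590.4 with MCI-HGR, a rise of 2.45-fold (adjusted p = 0.28 without the block, 7.61e-07 with it). Cep135.L, which ties the cartwheel to the microtubule wall, was 58.4 and 133.8 with ICD and 210.5 and 316.8 with MCI-HGR, a rise of 2.92-fold (adjusted p = 1 and 8.64e-06), which was 1.93-fold without ICD replicate 1 and 4.42-fold without ICD replicate 2. Both MCI-HGR arrays were above both ICD arrays for 3 of the 7 genes, stil.L, cep135.L and cep85.S, and for 1181 of all 9380 genes. Cep85.S and cep85.L had log2 differences of 0.36 and 0.29 and did not pass with the block. The kinase plk1.S (log2 difference 0.04) and fbxw5.S, an F-box protein that controls sass6 (0.06), had adjusted p values of 0.882 and 0.903 with the block. The sign of plk1.S turned under quantile normalization (-0.02), and that of fbxw5.S when its probe sets were averaged (-0.2).

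Of 10 measured genes (of 21 names listed) of the centriole wall, length control and maturation, 6 rose with the block, 0 fell, 6 were higher and 4 lower in both numbers, and the median log2 difference was 0.89. Poc1a.L, a wall protein, was 238.2 and 285.1 with ICD and 1772.9 and 1677.6 with MCI-HGR, a rise of 6.62-fold (adjusted p = 0.109 without the block, 3.72e-11 with it). Poc5.L, a centrin-binding protein of the centriole lumen, rose 3.6-fold, spice1.L, which acts in elongation, rose 2.2-fold and cep97.L, which caps the growing end with ccp110, rose 1.98-fold. The difference of poc1a.L lay between 6.05-fold and 7.24-fold with 1 array left out. Cep120.L and cep44.L rose 2.31-fold and 1.73-fold (adjusted p = 2.6e-05 and 0.00062 with the block). A second, dimmer cep44.L probe set was 1.37-fold higher and did not pass (adjusted p = 0.159 with the block). Poc1b.L, the close relative of poc1a, had a log2 difference of -0.25 (adjusted p = 0.561 with the block). Tubd1.L, delta tubulin, had one of -0.03 (adjusted p = 0.973), which became 0.003 when arrays were centred on their medians.

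Of 7 measured genes (of 13 names listed) of distal appendages and basal bodies, 5 rose with the block, 0 fell, and all 7 were higher in both numbers, with a median log2 difference of 1.14. Cetn4.L, a centrin, was 67.3 and 78.5 with ICD and 1227.6 and 852.0 with MCI-HGR, a rise of 14.1-fold (adjusted p = 0.109 without the block, 6.59e-11 with it). Cep83.L, an appendage protein needed for docking, rose 3.44-fold and its homeolog cep83.S 2.2-fold, cby1.S, a basal body protein, rose 2.95-fold and pcm1.L, the scaffold of centriolar satellites, rose 1.78-fold. A second cby1.S probe set was 1.68-fold higher (adjusted p = 0.0388 with the block). Cep83.S was 3.5-fold higher without ICD replicate 1 and 1.38-fold without ICD replicate 2. With 1 array left out, cetn4.L was 11.7-fold to 16.9-fold higher and cep83.L 2.44-fold to 4.87-fold higher. Odf2.L and dzip1.L had log2 differences of 0.30 and 0.63 and did not pass with the block.

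**Figure D4:**
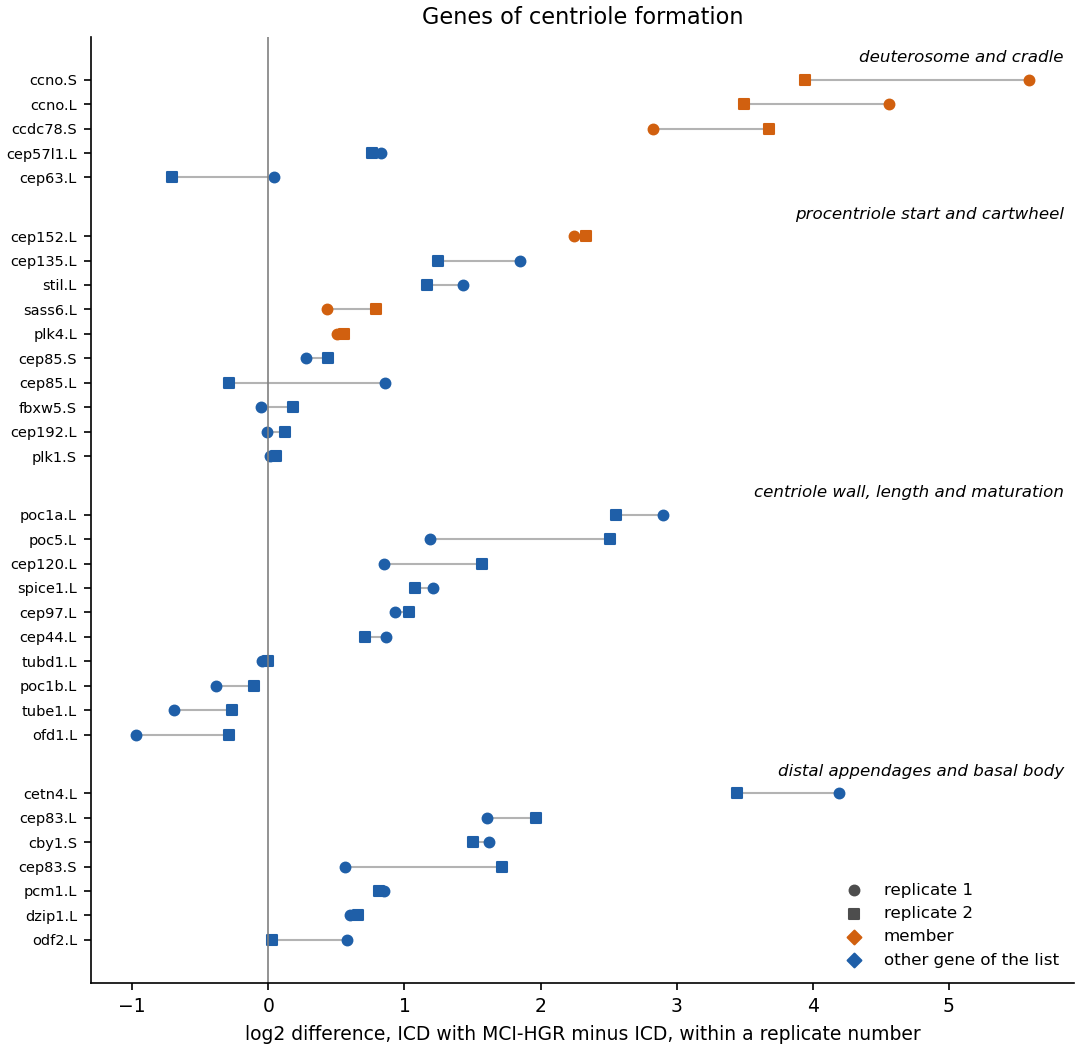
Log2 difference within number 1 (circles) and number 2 (squares) for the genes of 4 lists on centriole formation, with members in orange and other genes in blue. Large differences occur in every list (ccno.S, cep152.L, poc1a.L and cetn4.L), beside genes near 0 such as plk1.S and tubd1.L. In the deuterosome list the genes that have them are members, which were chosen with earlier results known. Of its 2 other genes, cep57l1.L and cep63.L, 0 were at least 2-fold higher in both numbers. The count over all 9380 tested genes was 229, so these 2 genes do not set the members apart.

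Ccno is named a cyclin, and the other cyclins did not share its size of difference. Of 35 measured genes of 21 other cyclin names, 2 rose and 4 fell with the block, and the median log2 difference was -0.01. In both numbers 10 were higher and 11 lower, against 32.7% and 29.0% of all 9380 genes. At least 2-fold higher in both numbers were 0 of the 35, against 229 of all 9380 genes, so the 0 is not particular to cyclins. Ccna1.S, an A-type cyclin, rose 1.83-fold and ccng2.S, a cyclin linked to cell cycle arrest, rose 1.56-fold. Their homeologs did not pass with the block. Ccna1.L was 1.16-fold lower (adjusted p = 0.696 with the block) and ccng2.L was 1.08-fold higher (adjusted p = 0.863). Ccne2.S, an E-type cyclin of S phase entry, was 690.3 and 527.4 with ICD and 375.5 and 248.7 with MCI-HGR, a fall of 1.97-fold (adjusted p = 0.953 without the block, 1.45e-05 with it). Its homeolog ccne2.L fell 1.69-fold (adjusted p = 0.0012 with the block). The D-type cyclins ccnd1.S and ccnd1.L fell 1.19-fold and 1.41-fold (adjusted p = 0.0462 and 0.0015 with the block). Ccnd1.L was 1.02-fold higher without ICD replicate 1 and 2.04-fold lower without ICD replicate 2. It was 1.79-fold lower without MCI-HGR replicate 1 and 1.11-fold lower without MCI-HGR replicate 2. The ccne2.L signals were 512.9 and 211.0 with ICD and 324.3 and 117.6 with MCI-HGR, and the fall was 1.08-fold without ICD replicate 1, 2.63-fold without ICD replicate 2, 2.8-fold without MCI-HGR replicate 1 and 1.01-fold without MCI-HGR replicate 2. Ccnc.L and ccnl1.L, cyclins of transcription, had log2 differences of -0.0052 and -0.0035 and changed sign when arrays were centred.

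**Figure D5:**
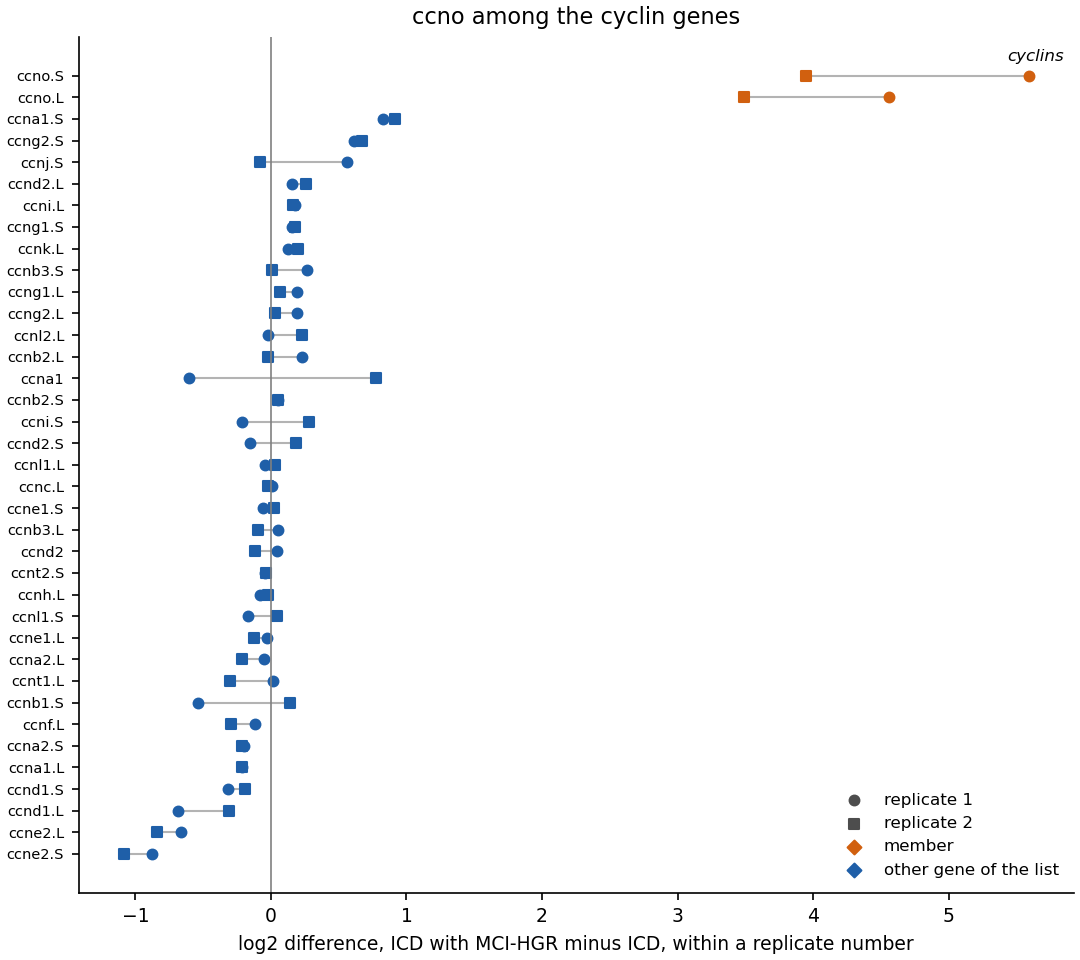
Log2 difference within number 1 (circles) and number 2 (squares) for ccno (orange) and 35 other cyclin genes (blue). The ccno copies lie at 3.49 to 5.59, and every other cyclin gene lies below a log2 difference of 1 in at least 1 number. Of all 9380 tested genes, 229 were at least 2-fold higher in both numbers.

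The mitotic oscillator, which is reused in part during centriole amplification, was the next list. Of its 29 genes 5 rose and 3 fell with the block, 10 were higher and 11 lower in both numbers, and the median log2 difference was -0.01. Fbxo43.L, known from egg meiosis as an inhibitor of the anaphase-promoting complex, was 23.5 and 18.3 with ICD and 124.6 and 77.3 with MCI-HGR, a rise of 4.73-fold (adjusted p = 0.31 without the block, 6.47e-06 with it). Its relative fbxo5 went the other way, with a fall of 1.86-fold for fbxo5.S and 1.53-fold for fbxo5.L. Cdc20.L, an activator of that complex, rose 1.59-fold (adjusted p = 5.89e-05 with the block). Cdk1.L and cdk1.S rose 1.62-fold and 1.46-fold (adjusted p = 7.76e-05 and 0.00069 with the block), while cdc25a.L fell 1.29-fold (adjusted p = 0.013 with the block). A second cdc20.L probe set was 1.2-fold higher and did not pass (adjusted p = 0.209 with the block). The homeologs cdc20.S and cdc25a.S were 1.17-fold and 1.1-fold higher and did not pass (adjusted p = 0.0878 and 0.784 with the block). The probe sets of cdc25b.L disagreed. The brightest (Xl2.55990.1.S1_at), at 93.4 and 32.4 with ICD and 154.8 and 60.0 with MCI-HGR, rose 1.75-fold (adjusted p = 1 without the block, 0.0188 with it), while the other 2 were 1.17-fold higher and 1.15-fold lower and did not pass. The 1.75-fold became 1.03-fold without ICD replicate 2, 1.09-fold without MCI-HGR replicate 1, 2.98-fold without ICD replicate 1 and 2.81-fold without MCI-HGR replicate 2. Aurka.S and pkmyt1.S had log2 differences of -0.01 and -0.02, which turned positive when arrays were centred.

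Among 9 genes of the regulators of the multiciliated programme, 4 rose and 1 fell with the block, with a median log2 difference of 0.02. Foxj1.S and foxj1.L, copies of the motile cilium factor, rose 11.6-fold and 7.2-fold, rfx2.S, a factor of ciliary genes, rose 3.15-fold, and mcidas.S rose as given above. The rfx2.S signals were 264.2 and 75.2 with ICD and 689.2 and 286.7 with MCI-HGR (adjusted p = 1 without the block, 6.46e-07 with it), and its difference was 5.91-fold without ICD replicate 1, 1.68-fold without ICD replicate 2, 2.03-fold without MCI-HGR replicate 1 and 4.89-fold without MCI-HGR replicate 2. With 1 array left out, foxj1.S was 9.68-fold to 13.85-fold higher and foxj1.L 6.16-fold to 8.42-fold higher. The log2 difference of mcidas.S, 4.18 with its signals as measured, was 3.46 when MCI-HGR replicate 1 was left out and 4.9 when replicate 2 of that group was. Gmnn.S, geminin, fell 1.23-fold (adjusted p = 0.0388 with the block), and was 1.09-fold lower without ICD replicate 1. Its homeolog gmnn.L was also 1.23-fold lower but did not pass (adjusted p = 0.102 with the block), and was 1.015-fold higher in number 2. The E2F partner genes tfdp1.L and tfdp1.S had log2 differences of 0.02 and -0.02 and did not pass; the first turned negative under quantile normalization (-0.02) and the second positive when arrays were centred (0.01).

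The genes most like each member were those with the smallest Euclidean distance between their 4 log2 signals, each centred on its own mean, among 12103 probe sets of other named genes. Nearest to ccno.L were cetn4.L (distance 0.278), kit.S (0.36) and wrap73.L (0.519), and nearest to ccno.S were mcidas.S (0.664), tsga10.L (1.01) and cetn4.L (1.07). Nearest to ccdc78.S were odf3.S (0.207), dnal1.L (0.251) and tekt1.L (0.255), the last pair being axonemal genes; the ICD signals of odf3.S, 7.4 and 9.0, were below the brightest tag controls of their arrays. Cep152.L lay nearest to fbxo43.L (0.447), obi1.L (0.496) and git2.L (0.517, through Xl2.19374.1.S1_at). Another git2.L probe set (Xl2.11463.1.S1_at) did not share that pattern, with log2 differences of -0.187 in number 1 and 0.273 in number 2. The plk4.L set ending in _at lay nearest to gpx3.L (0.111), cdc25b.L (0.165, through Xl2.55990.2.S1_at, not the probe set that rose) and tmpo.S (0.172), and the set ending in _s_at to cisd1.S (0.0415), kcnab2.L (0.0625) and frrs1.L (0.0699). Nearest to sass6.L were gpat4.S (0.154), riok3.S (0.185) and spata17.L (0.187). Of these, mcidas.S, wrap73.L and kcnab2.L each had 1 ICD signal not above the brightest tag control. When every signal was set to at least that control, an alternative added after seeing the data, mcidas.S stayed nearest to ccno.S (0.824) and wrap73.L stayed on the list of ccno.L (0.565). Odf3.S left the list of ccdc78.S, where dnal1.L, tekt1.L and tekt4.S (0.276) were then nearest. For the plk4.L sets the _at list became fcrg.L, gpx3.L and aifm3.L and the _s_at list cisd1.S, frrs1.L and arl6ip1.L, and the lists of cep152.L and sass6.L kept their genes. Members with small differences have many near patterns, so distances are not comparable between members.

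The genes beside the members in the RefSeq gene order of assembly v10.1 were looked up after the values were seen. Up to 3 genes on each side gave 34 neighbours, 13 of them with a probe set. Ccno.S lies next to mcidas.S, and ccno.L next to mcidas.L, which is followed by cdc20b.L; mcidas.L and cdc20b.L were not analysed here. Of 14 tested probe sets of neighbours, 1 passed with the block, that of mcidas.S. It passed in the higher direction, as did 4.68% of all probe sets. The smallest adjusted p of the others was 0.448. The mcidas.S probe set may read the injected mRNA, so its difference is no separate sign of a response beside ccno.S. Dhx29.L, on the other side of ccno.L, was 366.3 and 388.8 with ICD and 390.0 and 396.3 with MCI-HGR.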

How the data were processed

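Each array's deposited values are linear signal intensities, 1 for every probe set, and the submitters' processing notes name MAS5 for them. Its version was not given in the sources used here, nor was its scaling target. No further scaling was applied. After 96 control probe sets were left out, log2 was taken and the lowest 25% by mean log2 signal removed (below a mean signal of 10.65), which left 24404 probe sets; all 7 members stayed, and would have by their ICD signals alone. Symbols came from the platform annotation: 15495 probe sets had 1 symbol, 279 several and 16765 none, and probe sets with several or none were not named. RefSeq v10.1 served for names and gene order.

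The comparison used lmFit and eBayes (trend = TRUE) of limma 3.58.1, run in R 4.3.3. Tests were two-sided, and p-values were adjusted by Benjamini-Hochberg over all kept probe sets. The main model held the group alone, with 2 residual and 2.99 prior degrees of freedom. A model that also held the replicate number as a block had 1 residual and 15.1 prior degrees of freedom; it was run as an alternative and is printed beside it because the arrays parted by number. Printed SEs are from the model without the block. No label ties the replicates to different clutches. The p-values then measure only how far these samples spread, which may be technical, and the number of arrays limits precision. Prior degrees of freedom come from the variances of all tested probe sets. With 15.1 of them against 1 residual, p-values with the block rest mainly on those variances rather than on the spread of a single probe set. The fits were also run on simulated arrays in which the replicate number shifted both groups alike. The labels do not give such a shift, so that run does not show which fit suits these arrays.

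The members and lists were chosen with earlier results of these data known. Named genes were the members, mcidas, in each list the 4 other genes with the smallest p without the block and the 2 with the largest, and the 3 nearest named probe sets of each member, with 410 uninformative locus symbols skipped. Further list genes that passed with the block, homeologs of named genes, sass6.2.L, tbxt.S and the gene neighbours were named after their values were seen.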

Additional observations from a re-analysis of the deposited data

How the results depend on the processing

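The replicate number as a block left the log2 differences as they were (ccno.L 4.02, ccno.S 4.77, ccdc78.S 3.25, cep152.L 2.29, plk4.L 0.53 for the _s_at set, sass6.L 0.61) but brought these 6 past the threshold, and 1693 probe sets in all against 0 without it. The 2 arrays of a number deviated together from their group means (r = 0.745 across probe sets, which are not independent replicates), a hint from the data and not from the labels. With quantile normalization added to the block, 1500 probe sets and 4 members passed (ccno.L 4.02, ccno.S 4.78, ccdc78.S 3.25, cep152.L 2.25), and 3 rather than 5 procentriole genes. Averaging the probe sets of a gene gave 3 calls without the block (tekt2.S, tsga10.L and tuba1cl.3.L), and leaving out 1 array gave 0 to 126. With 1 array left out, log2 differences ran from 3.73 to 4.32 for ccno.L, 4.18 to 5.35 for ccno.S, 2.7 to 3.8 for ccdc78.S, 1.81 to 2.77 for cep152.L, 0.44 to 0.63 and -0.64 to 0.94 for the _s_at and _at sets of plk4.L, and 0.01 to 1.21 for sass6.L; the lone array is then assumed to vary like the other group. Probe sets at least 2-fold higher in both numbers came to 501, to 830 with no filter, to 229 with 1 probe set per gene and to 221 with probe sets averaged; this count has no value with an array left out. On all 4 arrays without the block, the adjusted p stayed between 0.0606 and 0.201 for ccno.L, 0.105 and 0.201 for ccno.S, 0.149 and 0.295 for ccdc78.S and 0.293 and 0.431 for cep152.L.

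Of 492 alternative values of 38 named list genes, 31 of 12 genes changed sign. Ccnd1.L, named after its values were seen, is not among these genes and also changed sign without ICD replicate 1. Under quantile normalization, with and without the block, plk1.S was at -0.016 and tfdp1.L at -0.022. With arrays centred, tubd1.L was at 0.0027, ccnc.L at 0.024, ccnl1.L at 0.025, pkmyt1.S at 0.0066, aurka.S at 0.021 and tfdp1.S at 0.0088, and with probe sets averaged fbxw5.S was at -0.20. With 1 array left out, values ran from -0.046 to 0.12 for plk1.S, -0.19 to 0.32 for fbxw5.S, -0.37 to 0.31 for tubd1.L, -0.036 to 0.64 for odf2.L, -0.42 to 0.38 for tfdp1.S, -0.065 to 0.11 for tfdp1.L, -0.21 to 0.20 for ccnc.L, -0.16 to 0.15 for ccnl1.L, -0.34 to 0.30 for pkmyt1.S, -0.57 to 0.55 for aurka.S, -0.15 to 0.73 for cep85.L and -0.95 to 0.29 for cep63.L. The cause of these changes was not tested. A slide or scan batch could not be tried from a value table. Low signals, as of ccdc78.S and mcidas.S with ICD, limit the size of their differences.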
